A study of Rattus norvegicus with 12 samples.

Results

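Gene expression in the cerebral cortex of rats that received late thrombolysis after an embolic stroke was compared with that of Sham rats, using 6 RNA sequencing libraries of the 12 in the series. The rt-PA group was 3 libraries of adult male Sprague Dawley rats in which a blood clot was placed in the middle cerebral artery and 10 mg/kg recombinant tissue type plasminogen activator (rt-PA, the clot-dissolving drug) was injected into the tail vein 6 h later. The Sham group was 3 libraries of male rats of the same strain whose carotid artery was exposed, without a clot and without rt-PA. The Model group (clot only) and the rt-PA+Acu group (clot, rt-PA and acupuncture), also of 3 libraries each, entered only the alternative fits over all 12 libraries and the description of libraries that stood apart. The clot and the drug were both absent from the Sham rats, so what belonged to each of them cannot be told apart here. The hemisphere and the time at which the sequenced cortex was taken are not given in the sources used here. Of 17268 genes in the count table, 15627 had a count in at least 1 of the 6 libraries and 13023 passed the filter on low counts and were tested.

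A clot in the middle cerebral artery deprives the cortex of oxygen and glucose, and neurons, which hold almost no energy reserve, are the first cells to fail. Injured tissue then draws in leukocytes through activated vessels, while microglia and astrocytes, the resident immune and support cells, leave their resting state. Plasmin, which rt-PA releases from plasminogen, dissolves fibrin, and it can also cut matrix proteins around brain vessels.

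Total counts per library lay between 12055556 and 13616935, so 3 counts stood for 0.220 to 0.249 CPM, the counts scaled to a library of 1000000. Principal component 1 of the 6 libraries held 81.7% of the variance and separated the 2 groups. Cortical neuron markers were present in the Sham libraries, with 1472, 1326 and 1471 CPM of Slc17a7, the vesicular glutamate transporter of cortical neurons. Markers of striatal neurons, which lie beneath the cortex, were also present and varied between Sham libraries, at a summed 496, 1204 and 949 CPM in Sham replicates 1, 2 and 3. A split that crosses the groups was known in these data: at 30 genes, the 3 Sham libraries and Model replicate 3 lay on one side and the other 8 libraries on the other. As all Sham libraries were on one side and all rt-PA libraries on the other, the split cannot be told apart from the group. These 30 genes were picked by that pattern, with the other 8 libraries, the rt-PA libraries among them, more than 1.5-fold outside the Sham range. That 22 of them were among the genes called below therefore follows largely from how they were picked. Values per library are given below as CPM in the order of replicates 1, 2 and 3.

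A gene was called differentially expressed (DEG) when edgeR's quasi-likelihood test gave a Benjamini-Hochberg adjusted p under 0.05 and the absolute log2 fold change, rt-PA over Sham, was above 1. By this rule 2924 genes, or 22.5% of those tested, were DEGs. Expression was higher in the rt-PA group for 1423 of them (10.9% of genes tested) and lower for 1501 (11.5%). The CPM ranges of the groups did not overlap for 2891 of the DEGs, and did not overlap for 64.0% of all genes tested. Lists are described below by the members that passed the filter on low counts. A gene almost absent from Sham cortex passed it only where the rt-PA libraries were high, so counts and medians of such lists are descriptions. The rise had the longer tail, with 158 genes more than 16-fold higher and 33 more than 16-fold lower. Higher DEGs had few counts in Sham cortex, with a median Sham level of 4.14 CPM, against 35.4 CPM for lower DEGs and 30.4 CPM over all genes tested, without division by transcript length. Lower DEGs made up 18.9 to 19.6% of the counts of a Sham library and 6.72 to 8.09% of those of an rt-PA library. Higher DEGs went the other way, from 2.22 to 2.35% to 7.70 to 9.36%.

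**Figure D1:**
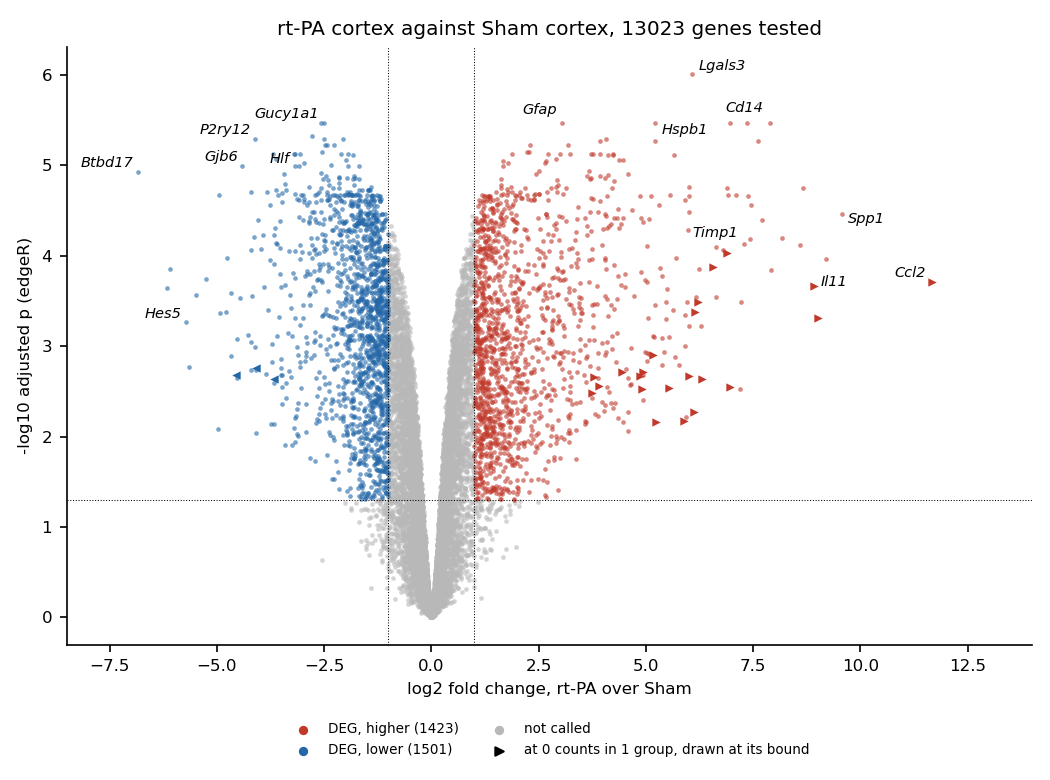
Log2 fold change (rt-PA over Sham) against the negative log10 of edgeR's adjusted p for 13023 genes, with higher DEGs in red, lower DEGs in blue and dotted lines at the thresholds. Lgals3 has the smallest adjusted p (9.83e-07), Ccl2 lies farthest to the right and Btbd17 farthest to the left (log2 fold change -6.84), and triangles mark genes with no count in one group, drawn at the bound that 3 counts over the group allow.

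The gene with the greatest rise was Ccl2, the chemokine that recruits monocytes through the receptor Ccr2. Ccl2 had 0 counts in each Sham library and 384, 261 and 150.1 CPM in the rt-PA libraries, at least 3263-fold higher against a floor of 3 counts over the Sham group (edgeR adjusted p = 1.94e-04). Il11, a cytokine of the interleukin-6 family, was also at 0 in the Sham libraries and reached 54.8, 42.4 and 21.8 CPM, at least 488-fold higher. Among the other genes without a Sham count were the neutrophil attractant Cxcl3 (at least 126-fold higher), the myeloid hexokinase Hk3 (at least 118-fold), the collagen receptor subunit Itga2 (at least 94.3-fold), the antimicrobial lectin Reg3g (at least 78.9-fold) and the TNF-family ligand Tnfsf18 (at least 70.8-fold). Transcription factors of embryonic development belonged to the same set. Pax1 went from 0 counts to 40.7, 20.4 and 65.98 CPM (at least 513-fold), Helt to 6.81, 3.73 and 7.82 CPM (at least 74.5-fold) and Barhl2 to 7.91, 1.15 and 8.12 CPM (at least 69.9-fold). In all, 22 tested genes had no count in any Sham library, and 3 (Cfap161, Ltc4s and Tfap2d) had none in any rt-PA library.

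The DEGs of smallest p with groups that did not overlap are described next, and since they were chosen for that, their small spread is no finding. Lgals3, a galactose-binding lectin of phagocytes, was at 1.31, 1.24 and 1.32 CPM in the Sham libraries and 83.8, 95.5 and 81.7 CPM in the rt-PA libraries (log2 fold change 6.07, SE 0.14, edgeR adjusted p = 9.83e-07). Cd14, the co-receptor for bacterial lipopolysaccharide, rose from 0.653, 0.620 and 1.23 to 94.6, 119 and 99.04 CPM (log2 fold change 6.97). Ptx3, a soluble pattern-recognition protein, rose from 0.326, 0.310 and 0.527 to 57.5, 56.6 and 77.7 CPM (7.35). Also in this set were Gadd45g, a stress sensor, at 7.12 ± 1.15 CPM in Sham and 108 ± 13.7 CPM in rt-PA cortex (SD, n = 3), and Inhba, the activin A subunit, at 4.21 ± 0.167 CPM in Sham and 70.5 ± 10.6 CPM in rt-PA cortex (SD, n = 3). Fam83g had 1 count in each Sham library and 20.9, 16.9 and 16.02 CPM in the rt-PA libraries.

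The falls of smallest p were chosen in the same way. Cracdl was at 126, 124 and 132 CPM in the Sham libraries and 20.6, 21.6 and 21.99 CPM in the rt-PA libraries (log2 fold change -2.57, SE 0.08, edgeR adjusted p = 3.37e-06). Gucy1a1, a subunit of the nitric oxide receptor guanylate cyclase, fell from 105, 109 and 109 to 18.3, 18.5 and 20.1 CPM (-2.51). Plxnb1, a semaphorin receptor, had a log2 fold change of -2.79, and Iqsec2 and Psd2, exchange factors for the ARF GTPases at synapses, of -2.05 and -2.54. Cables1 (-2.4982), Phactr3 (-2.28), Prom1 (-2.49) and Myorg (-2.43) completed this set with the microglial receptor P2ry12, described below. Btbd17 had the greatest fall, from 20.97, 23.5 and 15.8 to 0.275, 0.0718 and 0.148 CPM (-6.84, SE 0.35). Nat8f3 fell from 238, 133 and 97.3 to 3.79, 5.46 and 8.12 CPM (-4.76), and Ddc, which makes dopamine and serotonin from their precursors, from 7.43, 10.5 and 6.93 to 0.206, 0 and 0.590 CPM (-4.93). Hes5, a Notch target of glial cells, had 3.10, 6.20 and 3.51 CPM in the Sham libraries and 3 counts, all of replicate 2, in the rt-PA group, and the kinase Srpk3 had 7.51, 4.96 and 4.83 CPM and likewise 3 counts. Large falls were also those of Slc6a13 (-6.08), Phkg1 (-5.47) and Crybb1 (-4.77), each below 1 CPM in every rt-PA library.

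**Figure D2:**
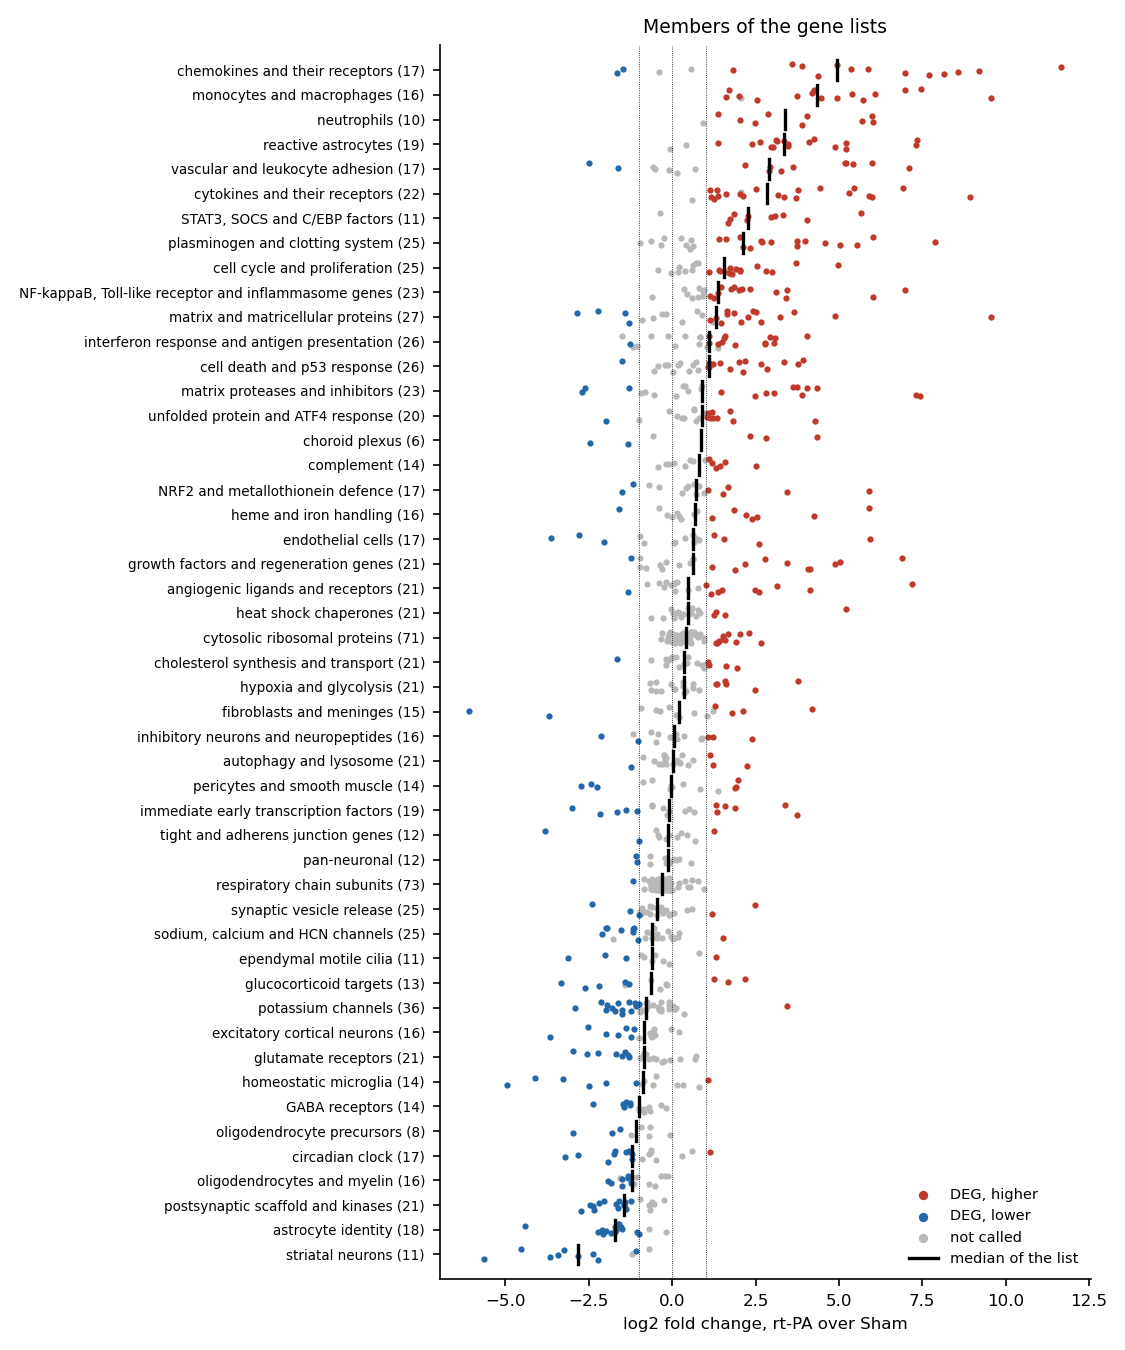
Log2 fold changes (rt-PA over Sham) of the members of gene lists for programs and cell types, each dot a tested gene, red or blue where it was a DEG, with the list's median as a black bar and the number of tested members in brackets. Among members that passed the filter, chemokines have the highest median (4.93), several of them with no Sham count, and striatal neuron markers the lowest (-2.82), while the list medians of pan-neuronal (-0.13) and autophagy genes (0.02) lie near 0.

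The split between libraries bears on these counts. When all 12 libraries were fitted with the split as a covariate, 1412 genes were called, 1175 of them among the 2924 above. That term rests by construction on Model replicate 3 against the other 2 Model libraries. The contrast with Sham is shifted by that difference, gene by gene, and also has less precision. What set Model replicate 3 apart was not tested. Lost calls and changed signs in that fit are therefore no correction of the values above. Hcn4, Mbp, Per1, RT1-Bb and Rpl38, named as DEGs below, had the opposite sign in that fit. Under it 25 of the 51 lists moved by more than 1.5 times in their number of calls. The calls dropped from 16 to 8 for astrocyte identity, from 15 to 3 for the cell cycle, from 14 to 4 for interferon and antigen genes, from 10 to 3 for the clock, from 12 to 1 for ribosomal proteins, from 9 to 2 for striatal neurons and from 7 to 0 for myelin. Calls on neural lists dropped from 3 to 1 for oligodendrocyte precursors, from 7 to 4 for microglia, from 7 to 4 for excitatory neurons, from 5 to 2 for inhibitory neurons, from 2 to 1 for pan-neuronal genes and from 5 to 3 for presynaptic genes. They also dropped from 6 to 3 for GABA receptors, from 15 to 7 for potassium channels, from 9 to 2 for sodium, calcium and HCN channels, from 8 to 3 for glucocorticoid targets, from 4 to 1 for heat shock chaperones and from 8 to 5 for heme and iron genes. The last of these lists went from 19 to 11 for matrix proteins, from 15 to 9 for cell death genes, from 6 to 3 for fibroblasts, from 5 to 0 for choroid plexus, from 4 to 2 for motile cilia and from 1 to 0 for the respiratory chain. Of the other 26 lists, cytokines had 19 calls, chemokines 13, the plasminogen system 11, monocytes 12, reactive astrocytes 13 and the postsynaptic scaffold 14.

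Of 25 cytokines and cytokine receptors on the list 22 passed the filter, and of these 20 were higher DEGs and 0 were lower DEGs. With 10 counts required in every library 11 were called. Lif, a neuropoietic cytokine of the interleukin-6 family, was at 0.816, 0.543 and 0 CPM in the Sham and 65.4, 50.7 and 55.9 CPM in the rt-PA libraries (log2 fold change 6.92, SE 0.42, edgeR adjusted p = 2.12e-05). Il1b, the main secreted interleukin-1, rose from 0.490, 0 and 0 to 15.003, 11.9 and 4.35 CPM (5.91). Both inhibitors of that cytokine moved with it: the decoy receptor Il1r2 had a log2 fold change of 5.98 and the receptor antagonist Il1rn of 5.47. Il6 itself, at 1.06, 0.853 and 0.263 CPM in the Sham libraries, reached 19.6, 19.3 and 9.004 CPM in the rt-PA libraries (4.43). The shared signalling chain of that family, Il6st, rose by less (1.16), as did Il6r (1.36), while the oncostatin receptor Osmr had 3.35 and Lifr (0.60) was not called. Tnfrsf12a, the receptor of the cytokine TWEAK, had 5.31, above the TNF receptor Tnfrsf1a (2.03). Tnf was at 0.653, 1.01 and 0.176 CPM in the Sham and 2.27, 4.88 and 0.664 CPM in the rt-PA libraries and did not pass the test (edgeR adjusted p = 0.0584), though it did without rt-PA replicate 3, its lowest rt-PA library (adjusted p = 0.0153). The Sham counts of Il1b all came from replicate 1.

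Chemokine genes diverged by type. Of 25 chemokines and receptors on the list 17 passed the filter, several of them through the rt-PA libraries alone, and 13 were higher DEGs and 2 lower. With 10 counts required in every library, 4 were called in either direction. Attractants of neutrophils and monocytes rose: Cxcl1 from 0, 0.233 and 0 to 38.1, 24.9 and 15.6 CPM, Cxcl2 from 0.0816, 0 and 0 to 14.3, 20.6 and 7.53 CPM and Ccl3 from 0.0816, 0.233 and 0 to 25.6, 33.5 and 15.1 CPM (7.70). Replicate 3 was the lowest of the rt-PA libraries for Cxcl1. Ccl7 had 5 counts in the Sham group and 151, 57.96 and 48.7 CPM in the rt-PA libraries (9.20), and Ccl20 had none and 10.2, 1.94 and 2.14 CPM (at least 59.2-fold). The receptors for these ligands, Ccr2 (4.93) and Cxcr2 (3.88), were higher too. The 2 chemokines made by resting brain cells were lower. Cx3cl1, made by neurons and read by microglia, fell from 514, 606 and 582 to 194, 212 and 200.4 CPM (-1.49), and Cxcl12 from 159, 171 and 154 to 70.3, 38.4 and 46.1 CPM (-1.64).

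Genes of STAT3 signalling, which the interleukin-6 family activates, were higher as well. Of 11 STAT3, SOCS and C/EBP genes, 10 were higher DEGs (median 2.27). Socs3, the feedback inhibitor of the pathway, was at 3.998, 2.56 and 2.55 CPM in the Sham and 195, 122 and 147 CPM in the rt-PA libraries (log2 fold change 5.67, SE 0.25, edgeR adjusted p = 7.74e-06). Stat3 rose from 73.6, 79.9 and 90.4 to 385, 388 and 405 CPM (2.27), Myc from 4.41, 1.78 and 2.37 to 52.7, 41.2 and 47.01 CPM (4.04) and Cebpd had a log2 fold change of 3.07. Socs2 (-0.36) was the member not called. In the NF-kappaB, Toll-like receptor and inflammasome list, 14 of 23 were higher DEGs and 0 were lower (median 1.37). After Cd14, the amplifying receptor Trem1 (0 Sham counts, 9.22, 4.24 and 2.14 CPM), the survival factor Birc3 (3.44) and the necroptosis kinase Ripk3 (3.41) rose most. The noncanonical subunits Nfkb2 (1.9968) and Relb (1.87) were called, whereas Nfkb1 (0.94), Rela (0.78) and the inhibitor Nfkbia (0.94) were below the fold threshold. Without rt-PA replicate 3, Nfkb1 (1.07) and Nfkbia (1.08) passed it.

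Antigen presentation and the interferon response gave different pictures within 26 tested genes, of which 13 were higher DEGs and 1 was lower. All 4 MHC class II chains on the list rose, RT1-Db1 from 0.0816, 0.620 and 0.790 to 8.19, 2.08 and 2.51 CPM (3.09), RT1-Bb (2.93), RT1-Da (2.78) and RT1-Ba (2.78), with the class II chaperone Cd74 (1.89). Genes of one MHC cluster are close in sequence, and reads shared between them could have been split. Antiviral effectors did not move one way: Ifitm1 (4.04) and Ifitm3 (3.05) rose, Mx2 fell (-1.28), and Irf7 (-1.51) and Isg15 (0.40) were not called. Cd74 lost its call without Sham replicate 1 (edgeR adjusted p = 0.0640) or 2 (0.0737), and RT1-Da fell to a log2 fold change of 1.83 without rt-PA replicate 1. In the complement list 6 of 14 genes were higher DEGs. The C1 inhibitor Serping1 had the greatest change (2.51), ahead of the proteases C1r (1.5977) and C1s (1.32), and C3 rose from 6.53, 8.37 and 6.58 to 24.4, 10.3 and 11.7 CPM (1.11). That call was lost without Sham replicate 1 (edgeR adjusted p = 0.0776) or 3 (0.0783), and without rt-PA replicate 1 its log2 fold change was 0.62. The microglial C1q chain C1qb was not called (0.55).

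Markers of monocytes and macrophages were above their Sham level. Several of them, Spp1, Cd14 and Lgals3 among them, are also made by activated microglia, and the sources cannot be told apart here. Of 20 markers 16 passed the filter and 15 were higher DEGs, or 7 when 10 counts were required in every library, and their summed level was 75.3, 99.004 and 85.6 CPM in the Sham libraries and 1953, 1933 and 1130 CPM in the rt-PA libraries. Spp1, a secreted adhesion protein of activated macrophages, was at 0.0816, 1.09 and 2.37 CPM in the Sham and 939, 1174 and 526 CPM in the rt-PA libraries (log2 fold change 9.56, SE 0.62, edgeR adjusted p = 3.44e-05). The scavenger receptor Msr1 rose from 0.0816, 0 and 0.614 to 35.4, 47.9 and 38.1 CPM (7.46), and the monocyte receptor Ccr2 from 0, 0.310 and 0.439 to 15.1, 4.31 and 3.91 CPM. Arg1, often used as a marker of repair-type macrophages, rose by less (2.01). Of 18 neutrophil markers, 10 passed the filter and 9 were higher DEGs, or 3 when 10 counts were required in every library. The summed level went from 18.9, 13.2 and 18.3 to 202, 141 and 141 CPM. Much of that sum was Mmp9, with a mean of 5.27 CPM in the Sham and 87.4 CPM in the rt-PA libraries. Mmp9 is also on the list of matrix proteases, so the sum is no measure of neutrophils alone. S100a9, a calcium-binding protein that fills neutrophil cytoplasm, was at 3.67, 1.01 and 3.07 CPM in the Sham and 35.4, 16.6 and 4.21 CPM in the rt-PA libraries (2.87), while Mpo and Elane, granule enzymes transcribed in immature neutrophils of the marrow, had 0 counts in all 6 libraries. S100a9 lost its call without Sham replicate 2 (edgeR adjusted p = 0.0602) or 3 (0.0523). Lymphocyte markers were scarce, at a summed 2.04, 2.25 and 1.49 CPM in the Sham and 10.5, 5.82 and 4.72 CPM in the rt-PA libraries, and Lck, the T cell kinase, was the member that passed the filter (0.92, not called). With any Sham library or rt-PA replicate 3 left out, 1 lymphocyte gene was called. In whole cortex, more cells of a type and more RNA per cell cannot be told apart, and the same holds for fewer cells and less RNA. The red blood cell gene Hba-a3, a haemoglobin chain, was at 4.73, 1.71 and 0.790 CPM in the Sham and 1.17, 1.29 and 2.88 CPM in the rt-PA libraries and was not called.

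Adhesion molecules of vessels and of leukocytes were more often higher than lower. Of 17 tested, 10 were higher DEGs and 2 lower. On the endothelial side, E-selectin (Sele) rose from 0.490, 0.698 and 0.614 to 40.5, 52.6 and 24.5 CPM (6.0046, edgeR adjusted p = 2.18e-05), P-selectin (Selp) from 0.0816, 0.388 and 0.439 to 17.96, 11.7 and 3.84 CPM (5.17) and Icam1 from 4.16, 4.73 and 3.42 to 53.96, 40.5 and 58.2 CPM (3.62). Vcam1 went the other way, from 71.8, 87.4 and 68.5 to 21.95, 30.3 and 21.99 CPM (-1.62). Among leukocyte integrin chains, Itgax (7.09), Itgal (3.25), Itgam (2.95) and Itgb2 (2.17) rose. Itgb7 went from 2 counts in the Sham group to 4.89, 1.80 and 1.55 CPM. Itgam and Itgb2 were present in Sham cortex, at means of 13.6 and 14.2 CPM. Whether resident or incoming cells made these integrins cannot be told apart here. Selplg, the selectin ligand that microglia also make, fell (-2.4952). Cd44, the hyaluronan receptor of leukocytes and reactive astrocytes, was at 6.37, 8.76 and 7.02 CPM in the Sham and 324, 241 and 259 CPM in the rt-PA libraries (5.21, SE 0.17).

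The plasminogen system is the system the drug acts on, and its endogenous genes were changed at several points. Of 28 genes of plasminogen activation and clotting 25 passed the filter, and of these 16 were higher DEGs and 0 were lower, or 9 in all when 10 counts were required in every library. Plau, the urokinase type plasminogen activator, rose from 0.245, 0.388 and 0.702 to 36.5, 28.4 and 22.1 CPM (log2 fold change 6.02, SE 0.34, edgeR adjusted p = 1.72e-05) and its receptor Plaur from 0.898, 2.02 and 0.878 to 22.4, 23.3 and 14.8 CPM (3.97). Plat, the rat's own tissue type plasminogen activator, was at 89.3, 86.7 and 78.4 CPM in the Sham and 171, 107 and 113 CPM in the rt-PA libraries (0.62), below the fold threshold. The injected drug is a protein and adds no Plat transcript. The 2 chains of the plasminogen receptor annexin A2 complex, Anxa2 (3.76) and S100a10 (2.95), were both higher, as was the inhibitor Tfpi2 (5.03). Serpinb2, an inhibitor of urokinase, had 2 counts in the Sham group and 1.93, 1.01 and 1.62 CPM in the rt-PA libraries. Serpine2, an inhibitor made by resting brain cells, was not called (-0.63). On the clotting side, factor VII (F7) went from 0 Sham counts to 4.96, 1.22 and 5.31 CPM (at least 46.7-fold) and the anticoagulant receptors Thbd (2.67) and Procr (3.75) rose, while tissue factor (F3, 0.42) was not called. Plg, plasminogen, was too scarce to test, at 1 to 15 counts per library.

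**Figure D3:**
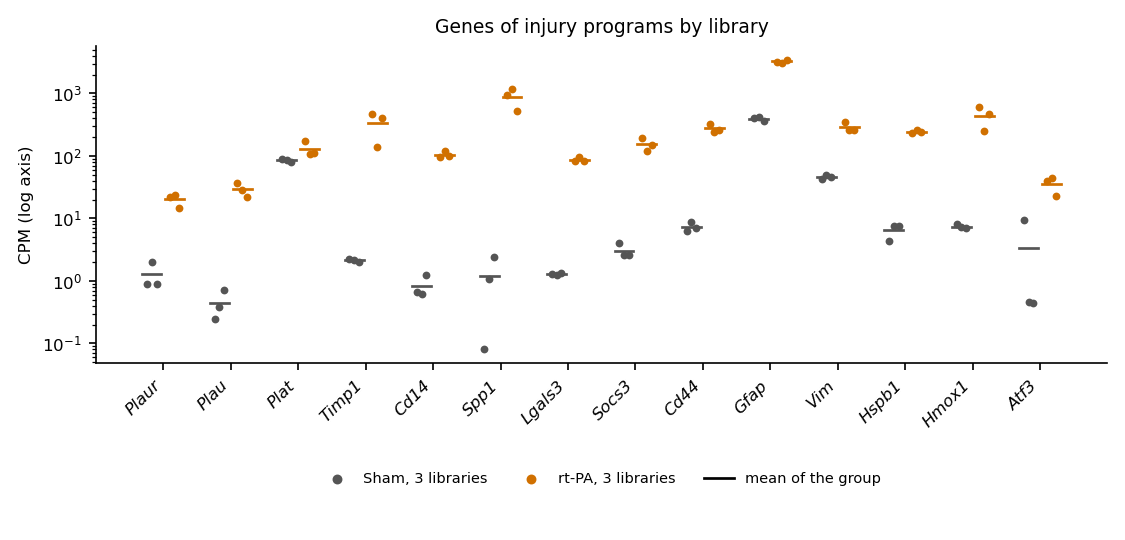
CPM (log axis) of genes of plasminogen activation, phagocytes, cytokine signalling, reactive astrocytes and stress in each of the 3 Sham libraries (grey) and 3 rt-PA libraries (orange), with a bar at the group mean. The groups do not overlap for any gene shown, the gap is smallest for Plat (89.3, 86.7 and 78.4 against 171, 107 and 113 CPM), and Sham replicate 1 lies above the other Sham libraries for Atf3.

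Matrix-degrading enzymes and their inhibitors went both ways. Of 23 tested, 11 were higher DEGs and 3 lower. Timp1, an inhibitor of matrix metalloproteinases, was at 2.20, 2.17 and 2.02 CPM in the Sham and 465, 139 and 407 CPM in the rt-PA libraries (7.30, edgeR adjusted p = 7.51e-05), with replicate 2 the lowest of the rt-PA libraries. Timp4 fell (-2.70) and Timp3 was not called (0.38). Among the proteases, the macrophage elastase Mmp12 rose from 0, 0 and 0.0878 to 4.68, 8.04 and 6.35 CPM, Mmp3 from 0.490, 0.0775 and 0.0878 to 3.58, 2.23 and 4.35 CPM (3.89) and Mmp9, the gelatinase linked to barrier breakdown, from 4.90, 4.34 and 6.58 to 69.6, 87.05 and 105 CPM (4.05). Mmp2, the constitutive gelatinase, was not called (0.33). Among matrix proteins 15 of 27 were higher DEGs and 4 lower. After Spp1, the wound matrix proteins Thbs1 (4.87) and Tnc (3.67) and the collagen crosslinker Lox (3.24) rose most, with the basement membrane chains Col4a1 (2.43) and Col4a2 (1.46). The lecticans of the perineuronal matrix were split, as Ncan (2.06) and Acan (1.64) rose while Bcan (-2.23) and the link protein Hapln1 (-2.85) fell.

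Vessel genes did not move as one group. Of 17 tested endothelial markers, 4 were higher DEGs and 3 lower, and their summed level was 769, 898 and 775 CPM in the Sham and 1164, 842 and 923 CPM in the rt-PA libraries. The 3 lower DEGs were transporters of the blood-brain barrier. Not all transporters on the list fell, as the amino acid transporter Slc7a5 was not called and lay above the list's median (0.64). Slco1c1, which carries thyroid hormone, fell from 175, 222 and 198 to 20.5, 8.55 and 19.04 CPM (-3.63, edgeR adjusted p = 7.21e-05), the efflux pump Abcg2 fell from 30.6, 52.4 and 42.3 to 4.61, 6.89 and 6.64 CPM (-2.79) and the lipid transporter Mfsd2a from 31.4, 36.7 and 42.7 to 3.72, 8.83 and 14.3 CPM (-2.05). General endothelial genes were higher or not called: the VEGF receptor Kdr rose (2.61), as did Eng (1.56) and Cdh5 (1.24) while Pecam1 (0.80) did not pass. Esm1, a marker of sprouting endothelium, was at 0, 0 and 0.0878 CPM in the Sham and 9.84, 0.790 and 5.61 CPM in the rt-PA libraries, and Angpt2, the ligand that loosens vessels, rose (3.14), with Vegfa at -0.02 and not called. In the junction list, 1 of 12 was higher (Cdh5) and 2 were lower, Cldn10 (-3.82) and Cgn (-1.0035), or 8.33% and 16.7%, near the shares over all genes tested (10.9% and 11.5%). Without rt-PA replicate 1 neither Cdh5 (0.98) nor Cgn was called, and Cgn was also lost without rt-PA replicate 3, Sham replicate 2 or Sham replicate 3. Tjp1, which encodes ZO-1 and was measured as protein in the study, was at 253, 273 and 250.4 CPM in the Sham and 313, 265 and 282 CPM in the rt-PA libraries (0.15, not called). Among mural cells, the pericyte genes Vtn (-2.75) and Rgs5 (-2.26) fell while Anpep (1.91) and Des (1.87) rose, and Pdgfrb was not called (0.32). Fibroblast markers were uneven in both groups, at a summed 386, 937 and 782 CPM in the Sham and 1057, 332 and 856 CPM in the rt-PA libraries, and of 15 tested, 4 were higher and 2 lower, or 3 in all without rt-PA replicate 3 or without Sham replicate 3.

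Stress responses differed in size between genes. Among heat shock chaperones, which refold damaged proteins, 4 of 21 were higher DEGs and 0 lower (median log2 fold change 0.47). Those called were small heat shock proteins and their partner: Hspb1, at 4.41, 7.68 and 7.64 CPM in the Sham and 228, 263 and 245 CPM in the rt-PA libraries (5.22, SE 0.20, edgeR adjusted p = 5.42e-06), Hspb8 (1.33), Cryab (1.26) and the co-chaperone Bag3 (1.59). Hspb8 fell below the fold threshold without rt-PA replicate 1 (0.97). The general chaperones were below the fold threshold. Hsp90aa1 was at 0.71, Hsph1 at 0.84 and Dnajb1 at 0.26 (edgeR adjusted p = 2.61e-04, 3.17e-04 and 0.0487), and Hspa8 at 0.17 (edgeR adjusted p = 0.299). Over the whole chaperone list, 18 genes had a log2 fold change above 0 and 14 had an adjusted p under 0.05 at any fold. In the unfolded protein and ATF4 list 9 of 20 were higher DEGs and 1 lower. The higher DEGs were ATF4-side genes. The pseudokinase Trib3 was at 0.0816, 0.465 and 0.0878 CPM in the Sham and 5.16, 4.17 and 3.76 CPM in the rt-PA libraries (4.27). Sesn2 (1.82), Ppp1r15a (1.73) and Ddit3 (1.35) followed. Smaller rises were spread more widely: 17 genes of this list had a log2 fold change above 0, and 17 had an adjusted p under 0.05 at any fold. The lumenal chaperones Hspa5 (0.65) and Hsp90b1 (0.70) were higher but below the fold threshold (edgeR adjusted p = 0.00191 and 4.16e-04). The serine synthesis enzyme Psat1 fell (-1.98).

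Promoters of genes from the lists that rose are shown because they hold short motifs bound by the factors of those lists. The sequences are the 250 bases before the gene start in RefSeq's GRCr8 assembly, 5′ to 3′, with the searched motifs in capitals. Genes shown were picked after their motifs were seen, and Ccl2, Lif and Hmox1 have no entry in the promoter table used.
Hspb1 (chr12:26432302-26432551, minus strand): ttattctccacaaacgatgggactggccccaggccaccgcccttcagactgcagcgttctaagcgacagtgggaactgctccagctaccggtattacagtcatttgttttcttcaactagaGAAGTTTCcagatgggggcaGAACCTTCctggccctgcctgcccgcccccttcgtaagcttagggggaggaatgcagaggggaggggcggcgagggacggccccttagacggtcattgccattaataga
Bag3 (chr1:192533210-192533459, plus strand): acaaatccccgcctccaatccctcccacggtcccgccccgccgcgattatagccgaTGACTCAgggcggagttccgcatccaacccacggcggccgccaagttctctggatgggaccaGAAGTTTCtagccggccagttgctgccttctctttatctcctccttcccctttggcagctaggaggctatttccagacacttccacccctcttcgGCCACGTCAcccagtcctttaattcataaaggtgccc
Cxcl1 (chr14:17479322-17479571, minus strand): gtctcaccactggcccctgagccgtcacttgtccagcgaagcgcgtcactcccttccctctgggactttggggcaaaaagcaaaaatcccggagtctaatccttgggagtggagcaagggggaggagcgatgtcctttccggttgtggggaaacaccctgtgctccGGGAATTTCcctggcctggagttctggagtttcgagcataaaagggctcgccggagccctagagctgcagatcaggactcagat
Il6 (chr4:5894576-5894825, minus strand): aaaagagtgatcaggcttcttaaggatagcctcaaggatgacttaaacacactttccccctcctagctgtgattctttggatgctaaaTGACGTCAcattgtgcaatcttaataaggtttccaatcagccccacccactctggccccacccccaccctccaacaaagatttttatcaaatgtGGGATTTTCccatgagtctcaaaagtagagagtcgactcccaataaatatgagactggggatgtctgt
Plaur (chr1:89181113-89181362, plus strand): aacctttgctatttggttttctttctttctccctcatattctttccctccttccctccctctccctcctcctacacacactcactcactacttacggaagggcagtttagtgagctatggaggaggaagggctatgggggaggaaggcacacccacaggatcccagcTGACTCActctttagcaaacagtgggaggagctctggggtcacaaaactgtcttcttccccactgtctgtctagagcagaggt

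Hspb1 holds the heat shock element GAANNTTC at 2 places and Bag3 at 1, both strands searched, and 8.59% of all 33469 promoters of the table hold it at least once. Of the 17 tested heat shock list genes with a promoter entry, 11 hold it in at least 1 of their promoters. Among them are the called genes Hspb1, Hspb8 and Bag3 and also Hspa8, Hsph1 and Dnajb1, which were not called. This count is of genes, and the percentages over all promoters are of single promoters, so the 2 are unlike measures. Both were searched from 250 bases before to 50 after the gene start. Bag3 also holds the AP-1 motif TGANTCA (in 7.33% of all promoters), and the hypoxia motif ACGTG (19.3%) within an antioxidant motif TGACNNNGC (12.1%). Cxcl1 and Il6 each hold the NF-kappaB motif GGGANTTTC (1.15%), and Il6 holds the cyclic AMP motif TGACGTCA (1.83%). Plaur holds 1 AP-1 motif. The EGR motif GCGNGGGCG (4.98%) and the serum response CArG box (1.64%) were found in none of these 5 windows. These matches describe letters, and no factor's binding was measured.

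Oxidative defence and iron handling shared their leading gene. Hmox1, which breaks down heme, was at 7.997, 7.21 and 6.93 CPM in the Sham and 608, 248 and 471 CPM in the rt-PA libraries (5.90, SE 0.36, edgeR adjusted p = 2.42e-05). Of 17 tested genes of the NRF2 and metallothionein list, 5 were higher DEGs and 2 lower. Osgin1 (3.46), the metallothionein Mt2A (1.66), thioredoxin reductase Txnrd1 (1.52) and Gclc were the other higher DEGs. Nqo1 (0.49) and Gclm (0.66), also standard targets of NRF2, were higher but below the fold threshold (edgeR adjusted p = 0.0366 and 0.00130). In this list 13 genes had a log2 fold change above 0, and 16 had an adjusted p under 0.05 at any fold. Mt3, the neural metallothionein, fell (-1.52), and so did Prdx6 (-1.17), an astrocyte peroxidase. In the heme and iron list, 7 of 16 were higher DEGs. They included Lcn2, which binds iron carriers of bacteria (4.26), the haemoglobin scavenger receptor Cd163 (2.53) and the ferritin light chain Ftl1 (2.22). Of the hypoxia and glycolysis genes 6 of 21 were higher DEGs. The lactate exporter Slc16a3 (3.76), the peptide Adm (2.49) and Hif1a (1.62) were called, while Bnip3 (-0.48), Pdk1 (-0.65) and Slc2a1 (0.33) were not.

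Immediate early genes, which neurons switch on within minutes of firing, went both ways. Of 19 tested, 6 were higher DEGs and 5 lower (median log2 fold change -0.09). The stress factors Maff (3.73) and Atf3 (3.37) rose with Jun (1.88). Nr4a2 fell from 69.2, 82.2 and 48.7 to 5.71, 13.4 and 6.05 CPM (-2.99), and its relative Nr4a1 (-2.15) and Egr1 (-1.39) fell too. Fos was at 51.2, 17.7 and 13.8 CPM in the Sham and 25.8, 47.9 and 34.2 CPM in the rt-PA libraries and was not called (0.38). Sham replicate 1 was the highest Sham library for Fos, and for Atf3 it had 9.303 CPM against 0.465 and 0.439 CPM in the others. Without that library Fos was called (1.19) and the Atf3 log2 fold change was 6.25, while without rt-PA replicate 1 or 2 the Atf3 call was lost (edgeR adjusted p = 0.0612 and 0.0756).

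Cell death genes rose in part. Of 26 tested, 14 were higher DEGs and 1 was lower. Casp8, the caspase at death receptors, rose from 1.55, 2.56 and 2.55 to 9.57, 5.46 and 6.94 CPM (1.72, SE 0.31, edgeR adjusted p = 0.00231), and its substrate Bid (2.67) and the p53 target Cdkn1a (2.18) were higher. Bcl2a1, a survival gene of myeloid cells that the study names, rose from 0.245, 1.01 and 1.67 to 15.5, 17.2 and 7.38 CPM (3.78). Bax, which makes the pores through which mitochondria release death signals, was at 17.6, 15.6 and 22.999 CPM in the Sham and 29.7, 24.6 and 25.5 CPM in the rt-PA libraries (0.51, not called), and Bok, its relative, fell (-1.4990). Of 21 autophagy and lysosome genes 3 were higher (14.3%, against 10.9% of all genes tested) and 1 was lower (4.76%, against 11.5%), with a median of 0.02. Becn1 was at 132, 141 and 139 CPM in the Sham and 113, 107 and 113 CPM in the rt-PA libraries. That small fall (-0.30, edgeR adjusted p = 0.00874) was below the fold threshold. Map1lc3b, which encodes LC3B, was at 80.9, 79.5 and 86.2 CPM in the Sham and 79.97, 108 and 97.3 CPM in the rt-PA libraries (0.21, edgeR adjusted p = 0.161). Neither was called. In this list 12 genes had an adjusted p under 0.05 at any fold. The called members were lysosomal cathepsins, Ctsz (2.25), Ctsl (1.23) and Ctsb (1.12) upwards and Ctss, the cathepsin of microglia, downwards (-1.22). Cholesterol genes had 4 of 21 higher, led by Ch25h (1.96), and 1 lower, Apoe, the lipid carrier of astrocytes, which fell from 2221, 2209 and 1907 to 647, 619.8 and 728 CPM (-1.67).

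Proliferation and repair genes were higher. Of 25 cell cycle genes 15 were higher DEGs and 0 were lower (median 1.55). The replication helicase subunit Mcm5 rose from 0.734, 0.930 and 1.05 to 13.97, 12.3 and 9.37 CPM (3.70), Top2a from 1.55, 3.64 and 0.702 to 19.5, 17.2 and 10.997 CPM (2.99) and Mki67 from 5.39, 4.19 and 2.28 to 16.7, 14.6 and 8.34 CPM (1.73). The G1 cyclins Ccnd1 (0.62) and Ccnd2 (-0.42) were not called. Among growth factors and regeneration genes 10 of 21 were higher and 1 lower. Sprr1a, a gene of regenerating axons, was at 0.490, 1.01 and 2.72 CPM in the Sham and 163, 144 and 184 CPM in the rt-PA libraries (6.88, edgeR adjusted p = 1.78e-05). The neurotrophic factor Gdnf had 1 count in the Sham group and 1.31, 0.862 and 1.40 CPM in the rt-PA libraries. The neuropeptide Gal (4.88) and the stress cytokine Gdf15 (4.14) rose, and so did the neurotrophin receptor Ngfr (3.44). Bdnf was not called (0.62) and its receptor Ntrk2 fell (-1.22). Wnt1 and Crabp2, which the study also names, were higher (2.91 and 2.42), and Cd34 lower (-1.38).

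Astrocyte genes divided by the state they mark. Of 19 tested genes of reactive astrocytes, 17 were higher DEGs (median log2 fold change 3.35), while 16 of 18 genes of astrocyte identity were lower DEGs (median -1.70). Gfap, the intermediate filament of astrocytes, was at 402, 420.1 and 365 CPM in the Sham and 3189, 3119 and 3428 CPM in the rt-PA libraries (3.04, SE 0.10, edgeR adjusted p = 3.37e-06), and Vim rose from 43.2, 49.7 and 46.5 to 344, 264 and 264 CPM (2.64). The lower genes included those with which astrocytes serve neurons. The glutamate transporter Slc1a2 fell from 811, 922 and 944 to 239, 303 and 390.1 CPM (-1.52), the potassium channel Kcnj10 from 358, 468 and 423 to 64.1, 90.1 and 112 CPM (-2.23) and the gap junction protein Gjb6 from 74.8, 105 and 121 to 4.61, 5.46 and 4.13 CPM (-4.40). Aldh1l1, a general astrocyte marker, had a log2 fold change of -1.75 and the water channel Aqp4, just past the threshold, of -1.01, or -0.81, -0.86 and -0.93 without Sham replicate 2, rt-PA replicate 1 and rt-PA replicate 2. Sox9, the transcription factor of the lineage (-0.19), and glutamine synthetase (Glul, -0.70) were not called. Reactive genes that are also made by myeloid cells, such as Cd44 and Lcn2, are part of the rising list.

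Several genes of resting microglia fell. Of 14 tested, 6 were lower DEGs and 1 was higher. The purine receptor P2ry12, by which resting microglia sense injury, fell from 70.4, 63.9 and 65.7 to 3.30, 4.81 and 3.54 CPM (log2 fold change -4.10, SE 0.15, edgeR adjusted p = 5.10e-06). Its neighbour P2ry13 fell from 20.2, 18.1 and 13.1 to 0.413, 0.790 and 0.443 CPM (-4.94) and Tmem119, a microglial membrane protein, was at 54.4 ± 2.19 CPM in Sham and 13.7 ± 2.89 CPM in rt-PA cortex (SD, n = 3) (-1.98). Csf1r (-0.56) and Aif1 (-0.83), which macrophages also make, were not called, and Cx3cr1 was at 91.5, 87.5 and 62.6 CPM in the Sham and 55.1, 66.7 and 49.2 CPM in the rt-PA libraries (-0.50).

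Oligodendrocyte genes were lower but uneven between libraries. Of 16 tested, 7 were lower DEGs, and the summed level was 13182, 16576 and 19471 CPM in the Sham and 3010.1, 12694 and 3899.6 CPM in the rt-PA libraries. Mbp, a protein that compacts myelin, was at 5749, 7401 and 8708 CPM in the Sham and 1252, 4996 and 1384 CPM in the rt-PA libraries (-1.52, edgeR adjusted p = 0.0461), with replicate 2 the highest rt-PA library. Without that library 13 of these genes were called, with Mbp at -2.46. With any other library left out 4 were called, and Mbp was not (edgeR adjusted p from 0.0543 to 0.139). Of 8 precursor genes 3 were lower, with Gpr17 falling from 132, 164 and 130 to 15.9, 24.4 and 13.4 CPM (-2.99).

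**Figure D4:**
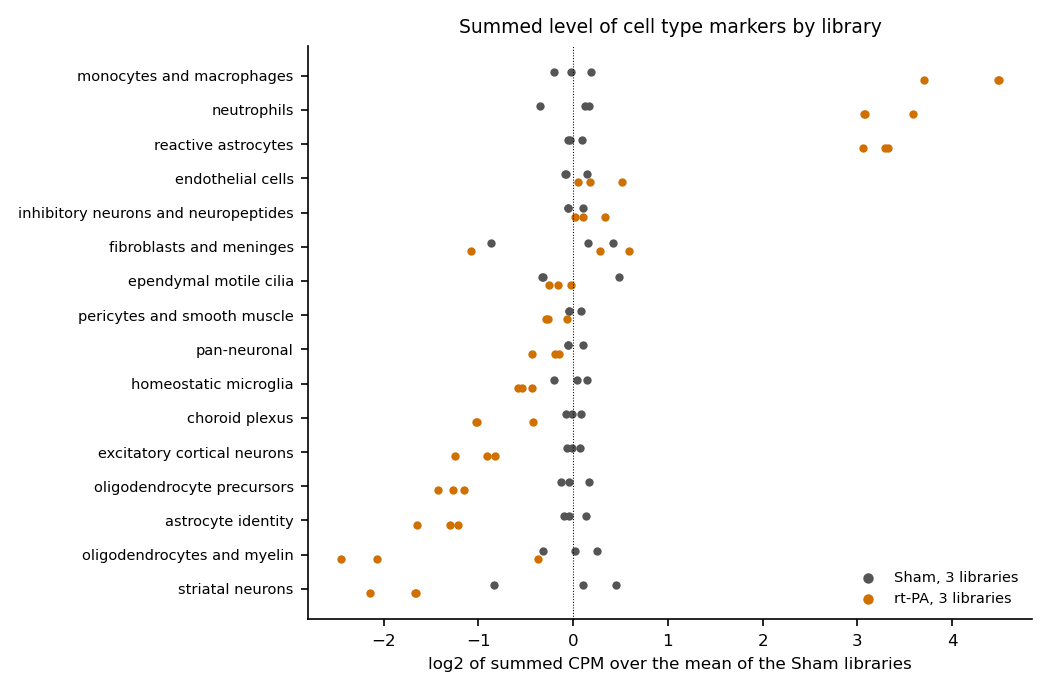
Summed CPM of the marker genes of each cell type in each library, as log2 of the ratio to the mean of the Sham libraries, with Sham libraries in grey and rt-PA libraries in orange. The rt-PA libraries lie to the right for monocytes and macrophages, neutrophils and reactive astrocytes, to the left for astrocyte identity and excitatory neurons, and spread most for oligodendrocytes and myelin (3010.1, 12694 and 3899.6 CPM).

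Neuronal genes were grouped by compartment and by class. Of 21 tested genes of the postsynaptic scaffold and its kinases, 14 were lower DEGs and 0 were higher (median log2 fold change -1.43). Camk2a, the kinase most abundant in excitatory synapses, fell from 2875, 2687 and 2529.8 to 274, 387 and 558 CPM (-2.73, SE 0.24, edgeR adjusted p = 8.61e-05). The scaffolds Shank3 and Dlg4, the latter encoding PSD-95, fell from 434, 586 and 492 to 171, 139.7 and 159 CPM (-1.69) and from 1113, 1279 and 1099 to 409, 457 and 429 CPM (-1.43). Arc, whose RNA travels to active synapses, had -2.19. Of 25 presynaptic genes 3 were lower DEGs (12%) and 2 higher (8%), near the 11.5% and 10.9% of all genes tested. In this list 20 genes had a log2 fold change below 0 (median -0.46) and 18 had an adjusted p under 0.05 at any fold. The difference between the postsynaptic and presynaptic lists was not tested. Cplx2, a clamp on vesicle fusion, fell (-2.41), Nptx2, an activity-induced pentraxin, rose from 70.7, 63.8 and 88.05 to 364, 322 and 546 CPM (2.47), and Snap25 (0.06), Syp (-0.37) and Syt1 (-0.65) were not called. Pan-neuronal genes had a median of -0.13, or 0.01 when scaled by library size alone, with 2 of 12 lower, Rbfox3 (-1.08) and Map2 (-1.07), whose RNA is carried into dendrites. Both calls were lost without rt-PA replicate 1 (log2 fold change -0.94 and -0.95), that of Rbfox3 also without Sham replicate 3 (-0.91), and both when scaled by library size alone (-0.93 and -0.93). Tubb3 (0.58) and the neurofilament Nefl (0.03) were not called.

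Receptor and channel genes were more often lower than higher. Of glutamate receptor genes 8 of 21 were lower DEGs and 0 were higher, and of GABA receptor genes 6 of 14 were lower and 0 were higher. Gria2, the subunit that keeps AMPA receptors impermeable to calcium, fell from 1104, 1054 and 1048 to 437, 375 and 388 CPM (-1.42, edgeR adjusted p = 2.18e-05). Grm5 (-2.23) and Grin2a (-1.4973) fell too, Grin2c, which astrocytes also make, had -2.98, and the obligatory NMDA subunit Grin1 was not called (-0.84). Gabrd, the subunit of receptors outside synapses, fell most of the GABA receptor genes (-2.37). Among potassium channels 14 of 36 were lower, led by Kcnh3 (-2.91), and 1 was higher, Kcnn4 (3.45), the calcium-activated channel of leukocytes. Of sodium, calcium and HCN channel genes 8 of 25 were lower, among them Scn8a (-1.19), and Hcn4 was higher (1.53).

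Excitatory and inhibitory neuron markers gave different counts. Of excitatory markers 7 of 16 were lower DEGs (43.8%) and 0 were higher (median -0.83). Of inhibitory markers and neuropeptides 2 of 16 were lower (12.5%) and 3 higher (18.8%), with a median of 0.05. Over all genes tested, 11.5% were lower and 10.9% higher. The 3 higher members were the neuropeptides Npy, Crh and Cck. The difference between the lists was not tested. Neurod6, a factor of upper and deep layer pyramidal cells, fell from 68.8, 79.5 and 84.6 to 8.603, 18.2 and 13.8 CPM (-2.52), Slc17a7 fell to 521, 702 and 698 CPM (-1.15) and Neurod1 had -3.67. The GABA-synthesising enzyme Gad1 was at 292, 267 and 249 CPM in the Sham and 469, 474 and 546 CPM in the rt-PA libraries (0.88), below the fold threshold, and Sst (-0.02) and Vip (-0.42) were not called. Npy, which the study names, rose from 23.6, 29.5 and 25.98 to 163, 113 and 138 CPM (2.39, edgeR adjusted p = 2.42e-05), with Crh (1.23) and Cck (1.08, and 0.9966 and 0.97 without Sham replicate 1 and rt-PA replicate 3). Beside these values, 9 of 11 striatal markers were lower DEGs (median -2.82), and their summed level was 496, 1204 and 949 CPM in the Sham and 199, 279 and 279 CPM in the rt-PA libraries. Syndig1l, a gene rich in striatum, was at 2.77, 77.4 and 51.2 CPM in the Sham and 1.51, 1.80 and 0.812 CPM in the rt-PA libraries, and lost its call without rt-PA replicate 2 (edgeR adjusted p = 0.0625). Without rt-PA replicate 1, 5 striatal markers were called. How much the share of striatum in the tissue adds to the neuronal falls was not tested.

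**Figure D5:**
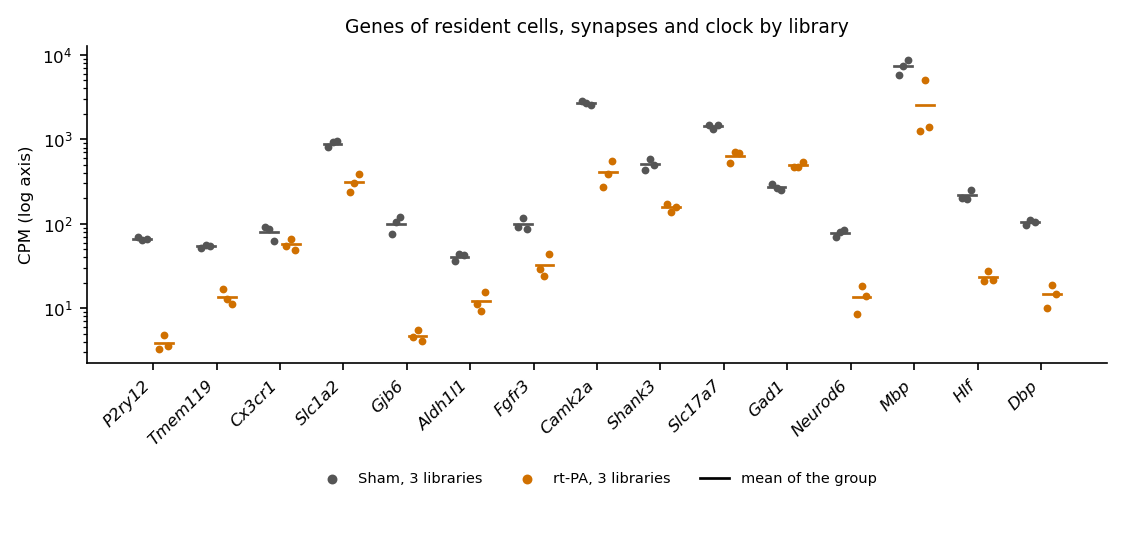
CPM (log axis) of genes of microglia, astrocytes, synapses, neuron classes, myelin and the circadian clock in each of the 3 Sham libraries (grey) and 3 rt-PA libraries (orange), with a bar at the group mean. P2ry12 and Gjb6 lie lowest relative to Sham (-4.10 and -4.40 log2), Gad1 lies above its Sham level without being called, and the rt-PA libraries spread most for Mbp.

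More clock genes fell than rose. Of 17 tested, 9 were lower DEGs and 1 was higher (median log2 fold change -1.20). The clock output factors Hlf and Dbp fell from 200.3, 198 and 251 to 21.2, 27.4 and 21.6 CPM (-3.21, SE 0.15, edgeR adjusted p = 7.49e-06) and from 96.1, 110.2 and 105 to 10.05, 18.7 and 14.9 CPM (-2.83). The repressors Per1 (-1.29), Per2 (-1.94) and Per3 (-1.70) were all lower, while Clock (0.28), Nr1d1 (-0.69) and Bhlhe40 (0.58) were not called. The hour of tissue collection is not given, so its part was not tested. Glucocorticoid targets, which also swing through the day, had 5 of 13 lower and 3 higher. Sult1a1 (-3.33) and Ddit4 (-2.20) fell, and Fkbp5, a sensitive target, was at 62.8, 95.6 and 116 CPM in the Sham and 68.6, 67.8 and 111 CPM in the rt-PA libraries and was not called (-0.15).

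Ribosomal and respiratory chain genes had small median changes. Of 71 cytosolic ribosomal protein genes 12 were higher DEGs and 0 were lower (median 0.42). In this list 63 genes had a log2 fold change above 0, and 44 had an adjusted p under 0.05 at any fold. Those called include Rpl39 (2.67), Rpl38 (2.03), Rpl30 (1.5954), Rpl9 (1.52), Rpl12 (1.41) and Rpl22 (1.35), which belong to the 30 genes at which Model replicate 3 lay with the Sham libraries. For Rpl39, Model replicate 3 had 142 counts, the Sham libraries 122, 151 and 105 and the rt-PA libraries 959, 990 and 807. Ribosomal protein genes also have many near-identical pseudogenes, so their counts are uncertain. Of 73 respiratory chain genes 1 was a lower DEG, Ndufa4l2 (-1.16), and 0 were higher DEGs (median -0.32). Small falls were common in this list: 64 genes had a log2 fold change below 0 and 9 above. An adjusted p under 0.05 at any fold was reached by 49. Choroid plexus and ependymal genes were scarce, with Ttr, the defining choroid transcript, at 0 to 2 counts per library, and Aqp1, a split gene, at 1.14, 1.47 and 1.49 CPM in the Sham and 14.6, 6.39 and 62.95 CPM in the rt-PA libraries.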

How the data were processed

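The data are deposited RNA sequencing counts of cerebral cortex, of which the 3 Sham and 3 rt-PA libraries were compared, grouped by their titles. The authors made poly(A)-selected, strand-marked libraries, aligned paired reads of 150 bases to mRatBN7.2 with STAR and deposited whole-number raw counts per gene symbol, without normalization. The paper names Salmon 1.9.0 as the counter, and the submitters' processing notes also name featureCounts 2.0.1. The use of the molecular identifiers in the adapters is not given, so 3-count floors cover counting error only. No source used here says that each library came from its own rat, so p-values measure the spread between these libraries.

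Counts were fitted in R 4.3.3 with edgeR 4.0.16 (filterByExpr, TMM factors 0.9454 to 1.0862, robust quasi-likelihood test on the 6 libraries, Benjamini-Hochberg adjustment over 13023 genes), after the code was tested on simulated data. The thresholds for a DEG, stated in the report, are those of the paper. Each standard error is the log2 fold change divided by the root of F. CPM use TMM library sizes, and where a group had no count the fold is a bound against 3 counts over that group, also in list medians. Named are list members with a defining role, the largest change or a deviating direction, the 12 DEGs with the largest rise and fall (mean of 1 CPM or more over 6 libraries) and the 10 with the smallest p in each direction (non-overlapping groups), and genes that the study names, some of which are not reported here. The members and the 51 gene lists were chosen with earlier results of these data known. Alternatives were DESeq2 1.42.0, RLE, upper quartile and library size scaling, 2 filters, a fit over 12 libraries with and without a split term, a replicate block, 2 thresholds and leaving out each library. Promoters came from RefSeq (GRCr8). They matched 78.2% of higher and 78.9% of lower DEGs, too few to compare motif shares between these sets.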

Additional observations from a re-analysis of the deposited data

How the results depend on the processing

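Direction and call were compared for the 235 named DEGs. DESeq2 gave 2929 DEGs (2890 shared with edgeR) and lost 1 named call, RLE factors gave 2925 and lost 0, upper quartile factors gave 2918 and lost 3, and a fit over all 12 libraries gave 2962 and lost 3. Scaling by library size alone gave 2960, with 1714 higher and 1246 lower, which is 57.9% higher against 48.7% with TMM, and moved the median of all genes to a log2 fold change of 0.149. Without the filter 3107 were called. Requiring 10 counts in every library left 2354, since by construction it removes genes absent from Sham cortex, and left 4 chemokine and 3 neutrophil calls.

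Without a fold threshold 7113 genes were called (3562 higher, 3551 lower), testing against 2-fold gave 1444 (723 and 721), and the fit with the split term gave 1412 (840 and 572), where 77 named calls were lost and 5 changed sign. With that term the log2 fold changes that changed sign were Bdnf (-0.22), F3 (-0.0066), Fkbp5 (0.38), Hcn4 (-0.22), Mbp (0.37), Per1 (0.10), RT1-Bb (-2.83), Rpl38 (-0.022), Sox9 (0.033), Sst (0.23) and Vegfa (0.24). With library size alone Sst was at 0.13 and Vegfa at 0.12, and with upper quartile factors at 0.033 and 0.028. Leaving out 1 library gave 2692 to 3194 DEGs, 1309 to 1536 higher and 1383 to 1658 lower. Over these fits Fkbp5 ran from -0.42 to 0.055, Hba-a3 ran from -0.96 to 0.49, Irf7 ran from -1.94 to 0.12, Nefl ran from -0.034 to 0.12, Snap25 ran from -0.026 to 0.18, Sox9 ran from -0.35 to 0.17, Sst ran from -0.18 to 0.10 and Vegfa ran from -0.079 to 0.10. These genes were not called with all 6 libraries. The cause of these changes was not tested.

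The fit with the replicate block gave 2904 DEGs (2830 shared) and lost 1 named call. The libraries share only a number: deviations from the group mean correlated at -0.0065, -0.0642 and 0.0733 for numbers 1, 2 and 3. Depth limits genes under 0.220 to 0.249 CPM, the worth of 3 counts.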

Other observations

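Among angiogenic ligands and receptors, 9 of 21 tested genes were higher DEGs and 1 was lower, against 10.9% and 11.5% over all genes tested. Besides Kdr and Angpt2, the growth factor Hbegf was at 7.92, 6.20 and 5.09 CPM in the Sham and 138, 92.5 and 106 CPM in the rt-PA libraries (log2 fold change 4.13), endothelial nitric oxide synthase Nos3 at 11.996, 17.99 and 14.8 CPM in the Sham and 52.6, 39.6 and 34.7 CPM in the rt-PA libraries (1.5014) and the lymphatic VEGF receptor Flt4 at 5.55, 4.497 and 4.56 CPM in the Sham and 12.9, 10.6 and 9.45 CPM in the rt-PA libraries (1.17). The lower gene was Vegfb, at 19.99, 23.7 and 14.6 CPM in the Sham and 9.02, 7.11 and 7.16 CPM in the rt-PA libraries (-1.32). In the list of pericytes and smooth muscle, 3 of 14 genes were higher and 3 lower.

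Genes of motile cilia, which line the ventricles on ependymal cells, had 3 of 11 tested genes lower and 1 higher. The axonemal protein Hydin was at 11.4, 2.40 and 4.30 CPM in the Sham and 0.826, 0.790 and 0.443 CPM in the rt-PA libraries (-3.12) and the dynein chain Dnah9 at 27.1, 15.8 and 13.4 CPM in the Sham and 8.67, 7.04 and 5.90 CPM in the rt-PA libraries (-1.38). Of the choroid plexus genes 6 of 12 were tested, 3 higher and 2 lower, and of the red blood cell genes 2 of 12 were tested and 0 were called. The genes at 0 counts in every rt-PA library were scarce in Sham cortex too. Ltc4s, the leukotriene C4 synthase, was at 1.47, 1.01 and 2.63 CPM in the Sham libraries, the transcription factor Tfap2d at 0.898, 1.47 and 1.23 CPM and the cilia gene Cfap161 at 0.816, 0.930 and 0.966 CPM.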
